A study of Rattus norvegicus with 25 samples.

Results

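The potassium channel genes of the rat were followed across 25 RNA-seq libraries of the hippocampus, taken after a traumatic brain injury or sham surgery. They were taken by name, as every gene whose symbol starts with Kcn, goes on with letters and ends in a number, leaving out Kcnj13 and symbols with a hyphen. The rule found 92 genes among the 34322 listed in the count table, and 86 of them passed the filter on low counts and were tested among 21064 genes. The 6 that did not pass were Kcnu1, Kcnv2, Kcnk15, Kcne1, Kcna10 and Kcnj1, which held 2 to 140 counts each over all 25 libraries.

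The rats were male Sprague-Dawley adults aged 6 to 7 weeks. Controlled cortical impact (CCI) is an injury in which a piston strikes the exposed cortex above the hippocampus. The groups were TD-CCI (impact and a thymus dosage), TCF-CCI (impact and thymus cytosolic factor), TNF-CCI (impact and thymus nuclear factor), Vehicle-CCI (impact and vehicle) and Vehicle-sham (sham surgery and vehicle), with 5 libraries each. TNF stands here for the thymus fraction and not for the cytokine tumour necrosis factor. The labels do not tie libraries to separate animals, so p-values reflect only how far these libraries spread, which may be technical, and they give no dose, time after injury or side of the brain.

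Potassium channels let potassium ions leave or enter the cell and so set the resting potential, end the action potential and control the rate of firing. The voltage-gated (Kv) channels are built of several pore subunits, often with cytoplasmic beta or calcium-binding partners, and the silent subunits form no channel of their own but change the Kv2 channels they join. Inward rectifiers and two-pore domain channels carry resting and receptor-driven currents, in neurons and in glia. Calcium-activated and sodium-activated channels open when those ions build up in the cell, which slows repeated firing. In the hippocampus these channels are known for shaping dendritic signals in pyramidal cells, fast firing in interneurons and the clearance of potassium by astrocytes, and microglia use a small set of their own.

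Library totals ran from 27290179 to 44899467 counts. The share of counts on mitochondrial ribosomal RNA, a sign of RNA or library quality, was 2.95% to 10.9% in the 20 CCI libraries and 2.18% to 25.6% in the 5 sham libraries. Vehicle-sham 2 stood apart, with a share of 25.6%, and Vehicle-sham 3 had 17.3%. Vehicle-sham 2 was the highest of the 25 libraries for 17.4% of the 86 channel genes and for 21.8% of all genes, and the lowest for 26.7% and 31.3%. Calls that rest on it are given with and without it. Markers of hippocampal pyramidal and granule neurons were present in every library, all 7 passing the filter, with summed levels of 529 to 1089 CPM (counts scaled to a common library total) in the CCI libraries and 820 to 1160 CPM in the sham libraries. Tissue RNA cannot tell fewer cells of a type from less RNA per cell.

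Levels between genes were compared as CPM per kilobase of exon, over the sham libraries unless stated. Kcnab2, the beta subunit that accompanies axonal Kv1 channels, stood first at 220 ± 51.8 CPM per kb (SD, n = 5) and held 25.8% of the sum over the 92 genes. Among the next were Kcnip2, a calcium-binding partner of Kv4 channels, at 67.0 ± 18.1, Kcnmb4, the neuronal beta subunit of the large-conductance calcium-activated channel, at 47.8 ± 11.9, and Kcnab1, a beta subunit that gives Kv1 channels fast inactivation, at 41.1 ± 23.6 CPM per kb. The ranges of 1 SD around these 3 means overlapped. Vehicle-sham 2 raised the mean of Kcnab1, with 82.3 CPM per kb against 22.4 to 36.3 in the other sham libraries. Kcnj10, the inward rectifier of astrocytes, had 28.6 ± 4.71 CPM per kb. At the other end, 4 genes that are described below as higher after impact were among the scarcest that were tested. Kcnk13, Kcnj5 and Kcnk6 had 0.498 ± 0.101, 0.496 ± 0.121 and 0.494 ± 0.131 CPM per kb in sham, and Kcnn4 had 0.136 ± 0.087.

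**Figure D1:**
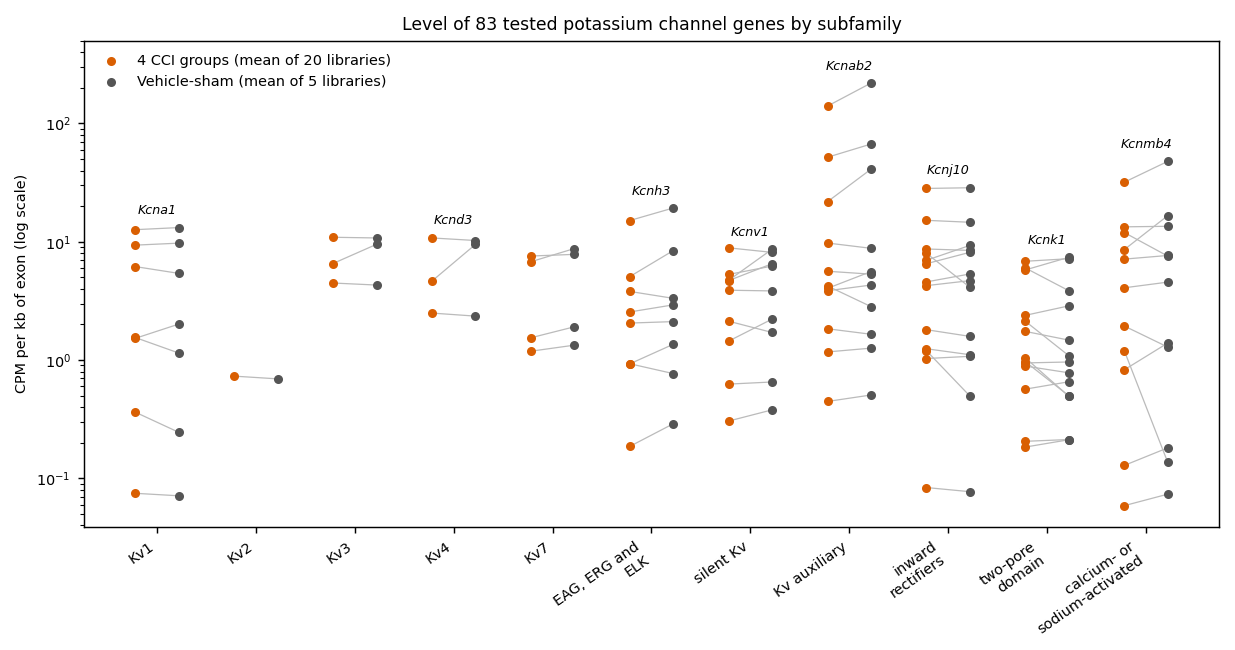
Mean level of 83 of the 86 tested genes in CPM per kb of exon (log axis), by subfamily, with the mean of the 20 CCI libraries (orange, left) joined to the mean of the 5 Vehicle-sham libraries (grey, right). The gene highest in sham is named in most subfamilies, and Kcnab2 tops all of them at 220 CPM per kb in sham.

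By subfamily, the beta and other auxiliary subunits held the largest share of the summed level, 35.4 ± 3.86% in the CCI libraries (SD, n = 20) and 42.0 ± 3.41% in the sham libraries (SD, n = 5). The inward rectifiers held 12.9 ± 1.44% and 10.3 ± 1.04%, and the two-pore domain channels 4.43 ± 0.629% and 3.31 ± 0.69%, again with CCI first. The calcium-activated and sodium-activated group held 12.1 ± 1.95% in CCI and 12.1 ± 2.51% in sham. These shares are a description and were not tested.

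The question of which channel genes respond to the impact was asked first of the mean of the 4 CCI groups against Vehicle-sham. TD-CCI, TCF-CCI and TNF-CCI also had a supplement, so after impact means here impact with or without a supplement. Vehicle-CCI alone against Vehicle-sham, given further below, had 0 of 86 called and 0% of all genes. For the mean of the 4 CCI groups 12 of 86 channel genes (14.0%) passed edgeR's quasi-likelihood test at an adjusted p under 0.05, beside 5.92% of all genes tested. Higher after impact were 4, namely Kcnn4, Kcnj5, Kcnk6 and Kcnk13 (2.24% of all genes were called higher). Lower after impact were 8, namely Kcnd2, Kcnt2, Kcnab1, Kcnv1, Kcnh7, Kcns3, Kcnmb4 and Kcnc2 (3.68% of all genes were called lower). No channel gene had all 20 CCI libraries on one side of all 5 sham libraries (0 of 86, beside 0.0807% of all genes, 0.0427% above and 0.0380% below). The median log2 fold change was -0.08 over the 86 channel genes, with 34 above and 52 below 0, and 0.01 over all genes. All 12 calls needed Vehicle-sham 2: without that library 0 of 86 channel genes and 14 of all genes passed in edgeR, while the 24 fits that each left out another single library called 8 to 15 channel genes. The calls were not equally firm. Over the 25 fits that left out 1 library, Kcns3 was called in 7, Kcnk13 in 11, Kcnmb4 in 16 and Kcnc2 in 17. Each of the other called genes was called in 24. With a covariate for the mitochondrial rRNA share Kcns3, Kcnk13, Kcnmb4 and Kcnc2 were not called (edgeR adjusted p = 0.0542, 0.0773, 0.0773 and 0.0588). Kcnab2, not called in the main fit, was called lower with the covariate (edgeR adjusted p = 0.0444).

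**Figure D2:**
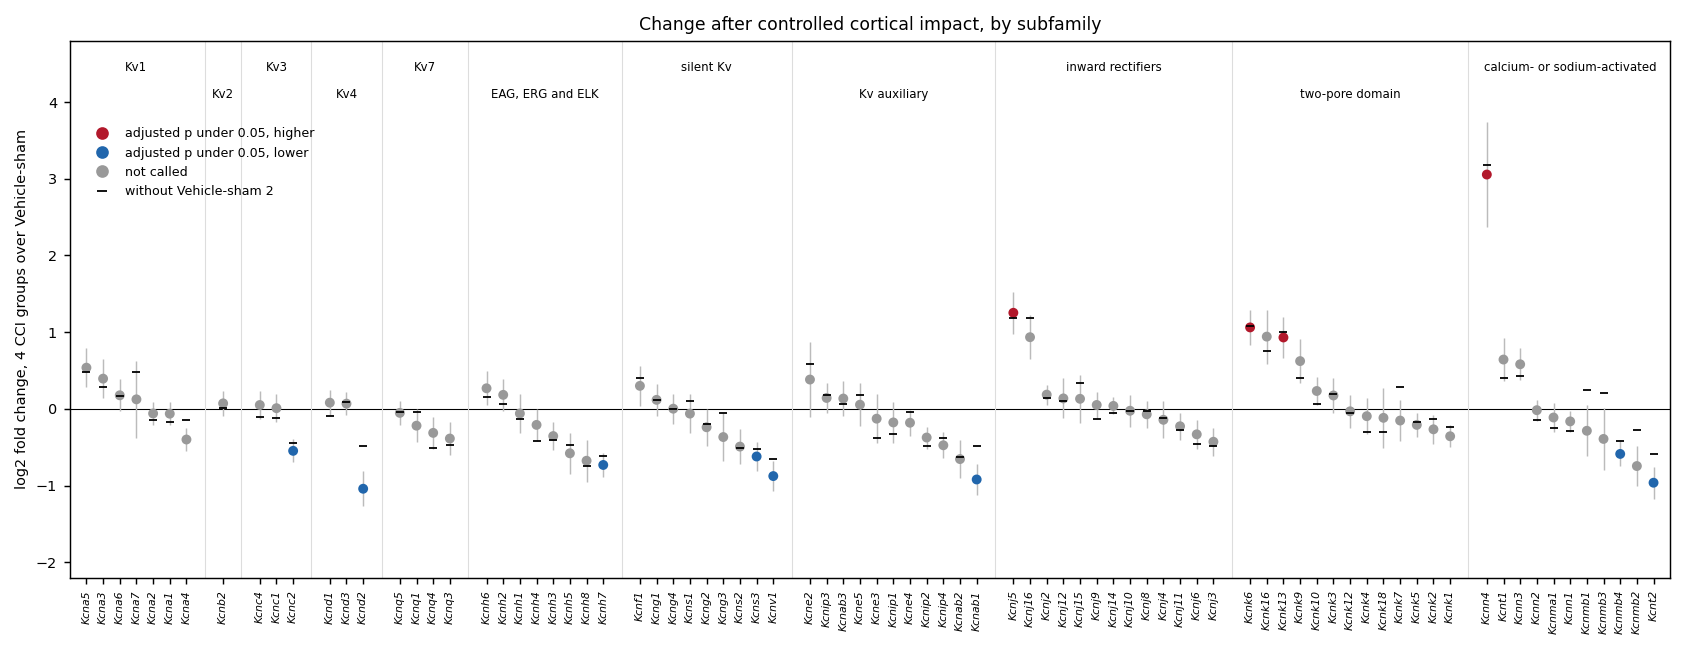
Log2 fold change of 83 of the 86 tested channel genes, mean of the 4 CCI groups over Vehicle-sham, with its SE as a bar, ordered within subfamilies (red, called higher; blue, called lower; grey, not called). Black dashes give the same value without Vehicle-sham 2: they stay beside the points for Kcnn4 and Kcnk6 and move to -0.48 for Kcnd2 and Kcnab1.

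The largest fold change belonged to Kcnn4, the intermediate-conductance calcium-activated channel, which is known from microglia and other immune cells (chromosome 1, 79956380 to 79974354, plus strand, mRatBN7.2). It ran from 0.266 CPM over a median of 3.12 to 9.39 CPM in the 20 CCI libraries, against 0.43, 0.626, 0.188, 0.196 and 0.884 CPM in the sham libraries, where it rested on 5 to 30 counts each. In 18 of 20 CCI libraries it lay above every sham library, and the 2 below were TCF-CCI 5 at 0.266 and Vehicle-CCI 4 at 0.367 CPM. The log2 fold change was 3.06 ± 0.68 (SE), with an adjusted p of 0.0223 in edgeR, and 3.18 without Vehicle-sham 2 (adjusted p = 0.0666).

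Both two-pore channels that rose are known from macrophages and microglia. Kcnk6, a leak channel (chromosome 1, 84525613 to 84533948, minus strand), had 1.21, 2.18 and 4.20 CPM as lowest, median and highest of the CCI libraries, against 1.36, 1.08, 1.09, 0.652 and 1.38 CPM in sham. In 19 of 20 CCI libraries it exceeded all sham libraries, and its log2 fold change was 1.06 ± 0.23 (edgeR adjusted p = 0.0222). Kcnk13, which carries the resting potassium current of rodent microglia (chromosome 6, 119240825 to 119345292, plus strand), had 1.52, 2.65 and 6.93 CPM as lowest, median and highest in CCI, against 1.59, 1.82, 1.09, 1.60 and 1.94 CPM in sham. It overlapped sham in 2 libraries, TCF-CCI 2 and Vehicle-CCI 3, and its log2 fold change was 0.93 ± 0.27 (edgeR adjusted p = 0.043). Without Vehicle-sham 2 the fold changes of Kcnk6 and Kcnk13 were 1.08 and 1.00, with adjusted p-values of 0.06 and 0.113.

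Kcnj5, a subunit of G protein-gated inward rectifiers that is best known from the heart atrium, was the only inward rectifier called (chromosome 8, 30724923 to 30753083, minus strand). It had 2.10, 4.04 and 9.45 CPM as lowest, median and highest in CCI, against 2.12, 1.37, 2.25, 1.40 and 2.27 CPM in sham, and only Vehicle-CCI 4 fell within the sham range. The log2 fold change was 1.25 ± 0.27 (edgeR adjusted p = 0.0222), and 1.19 without Vehicle-sham 2 (adjusted p = 0.0704). The neuronal G protein-gated subunits were not called. Their log2 fold changes were -0.43 ± 0.18 for Kcnj3 (adjusted p = 0.151 in edgeR), -0.33 ± 0.19 for Kcnj6 and 0.05 ± 0.17 for Kcnj9. Exons of Igsf8 overlap 30.7% of the Kcnj9 exon length, so the value of Kcnj9 is uncertain.

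Markers of microglia and macrophages moved with these 4 genes. All 8 of the markers listed (Cd68, Aif1, Csf1r, Cx3cr1, C1qa, Tyrobp, Trem2 and Gpnmb) rose in the same comparison, with a median log2 fold change of 1.22. Without Vehicle-sham 2 all 8 stayed above 0, with a median of 1.28, and 0 of 8 were called (edgeR adjusted p = 0.06 to 0.126). Their summed level was 143 to 629 CPM in the CCI libraries and 115 to 187 CPM in the sham libraries. Over the 20 CCI libraries the log2 level of each of the 4 channel genes was set against the log2 summed level of the markers. The list followed the direction of change, with these markers for genes that rose and neuronal markers for genes that fell. No other list, such as that of astrocytes, was set against them. Whether the relation is particular to markers of microglia and macrophages was not tested. Kcnj5 gave a Pearson r of 0.96 and a Spearman rho of 0.97, and Kcnn4 gave 0.91 and 0.96, each with a permutation p of 1e-05, the smallest that 100000 resamples can give. Kcnk6 gave an r of 0.79 (permutation p = 5e-05) and a rho of 0.72 (p = 0.00046), and Kcnk13 an r of 0.72 (permutation p = 0.00034) and a rho of 0.68 (p = 0.00134). Adjusted over the 12 relations computed, 1 for each called gene, these p-values were 4e-05, 4e-05, 0.0001 and 0.000583 for r and 4e-05, 4e-05, 0.00092 and 0.00201 for rho. Without the 2 libraries farthest from the median of the marker sum, r was 0.97 for Kcnj5, 0.91 for Kcnn4, 0.71 for Kcnk6 and 0.73 for Kcnk13. Among the 16 CCI libraries with a mitochondrial rRNA share over 5%, r was 0.96, 0.90, 0.74 and 0.64 in the same order. Levels and markers come from the same libraries and share their scaling, and the part of the markers in the result was not tested further.

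**Figure D3:**
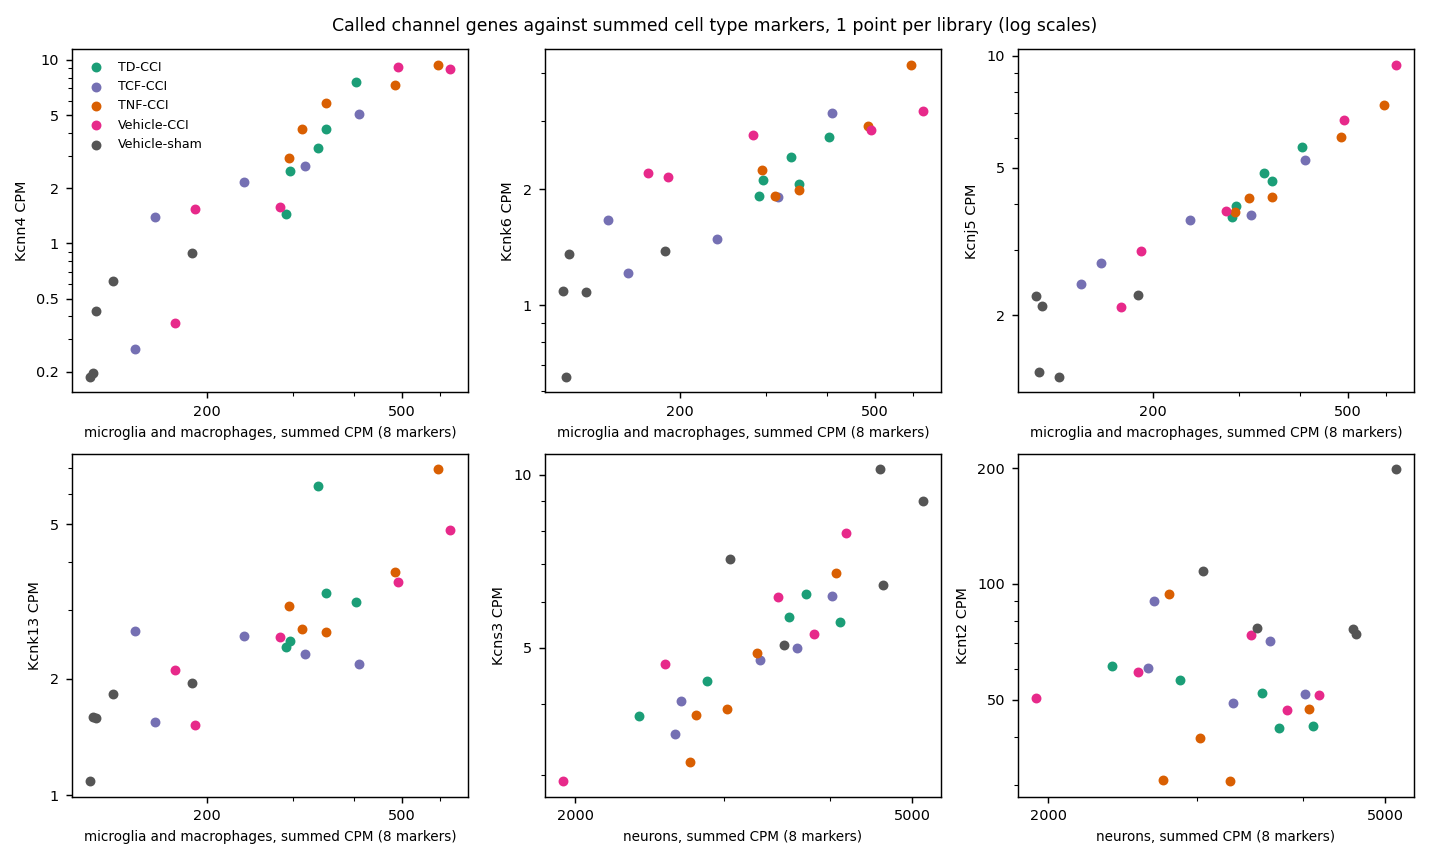
CPM of 6 called genes against the summed CPM of 8 cell type markers, 1 point per library, on log axes. The 4 genes that rose are set against markers of microglia and macrophages, and climb with them; Kcns3 and Kcnt2 are set against markers of neurons, where Kcns3 climbs (r = 0.89 over the CCI libraries) and Kcnt2 does not (r = -0.21).

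Among the genes that fell, those with large values in Vehicle-sham 2 came first. Kcnd2, the pore subunit of the dendritic A-type current of pyramidal cells (chromosome 4, 49775812 to 50277746, plus strand), had 60.9, 91.5 and 175 CPM as lowest, median and highest in CCI, against 114, 466, 188, 158 and 112 CPM in sham. In 14 of 20 CCI libraries it was below every sham library, and Vehicle-sham 2 was at more than any other library. The log2 fold change was -1.04 ± 0.23 (edgeR adjusted p = 0.0222), against -0.48 (adjusted p = 0.233) without Vehicle-sham 2. Its relatives were not called: Kcnd3 had a log2 fold change of 0.07 ± 0.15 and Kcnd1 of 0.08 ± 0.16.

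Kcnt2, a sodium-activated channel (chromosome 13, 51664129 to 52059209, plus strand), had 30.7, 51.6 and 94.2 CPM as lowest, median and highest in CCI, against 76.9, 199, 108, 73.9 and 76.4 CPM in sham. Only TCF-CCI 2 and TNF-CCI 2 entered the sham range, and the log2 fold change was -0.96 ± 0.21 (edgeR adjusted p = 0.0222). Without Vehicle-sham 2 it was -0.59 (adjusted p = 0.165). Kcnt1, the other sodium-activated channel, stood the other way round, with 42.1, 81.5 and 133 CPM as lowest, median and highest in CCI, against 49.9, 7.97, 65.1, 55.9 and 64.7 CPM in sham. The log2 fold change of 0.64 ± 0.28 was not called (edgeR adjusted p = 0.15), and the log2 fold change was 0.40 without Vehicle-sham 2, its lowest library.

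Kcnab1 (chromosome 2, 149137025 to 149603540, plus strand) had 51.7, 92.2 and 133 CPM as lowest, median and highest in CCI, against 94.5, 347, 153, 140 and 132 CPM in sham. Its log2 fold change was -0.92 ± 0.21 (edgeR adjusted p = 0.0232), and -0.48 (adjusted p = 0.212) without Vehicle-sham 2. The more abundant Kcnab2 had 299, 621 and 992 CPM in CCI, against 978, 921, 550, 1042 and 1100 CPM in sham, and was not called at -0.66 ± 0.25 (edgeR adjusted p = 0.0987). With the covariate for the mitochondrial rRNA share Kcnab2 was called, at -0.86 (edgeR adjusted p = 0.0444). Without Vehicle-sham 2 it was not called, at -0.62 (edgeR adjusted p = 0.278). Among the partners of Kv4 channels, Kcnip4 had -0.47 ± 0.17 (edgeR adjusted p = 0.0853), Kcnip2 -0.37 ± 0.14 (0.107) and Kcnip3 0.14 ± 0.19, and none of the 3 passed.

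Kcnh7, of the ERG family, whose currents damp repeated firing, was the only one of its group called (chromosome 3, 47329338 to 47822122, minus strand). It had 40.0, 65.0 and 89.0 CPM as lowest, median and highest in CCI, against 85.1, 134, 94.4, 106 and 127 CPM in sham, and 17 of 20 CCI libraries lay below all sham libraries. The log2 fold change was -0.73 ± 0.15 (edgeR adjusted p = 0.0222), and -0.62 (adjusted p = 0.0757) without Vehicle-sham 2. The other 7 members of the EAG, ERG and ELK group ranged from -0.68 (Kcnh8) to 0.27 (Kcnh6), and none was called.

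Both silent subunits that fell are known to join Kv2 channels. Kcnv1 (chromosome 7, 76260695 to 76269170, minus strand) had 10.4, 17.2 and 26.2 CPM as lowest, median and highest in CCI, against 17.8, 51.8, 29.8, 36.9 and 34.8 CPM in sham, or -0.88 ± 0.20 on the log2 scale (adjusted p = 0.0228 in edgeR). Kcns3 (chromosome 6, 33808314 to 33865018, minus strand) had 2.93, 4.83 and 7.91 CPM in CCI, against 5.06, 8.99, 7.14, 6.42 and 10.2 CPM in sham, or -0.62 ± 0.19 on the log2 scale (adjusted p = 0.0494 in edgeR). They lay below every sham library in 10 and 12 of 20 CCI libraries, and without Vehicle-sham 2 their values were -0.65 and -0.52. Of the Kv2 pore subunits, Kcnb2 had 0.07 ± 0.17 and was not called.

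Kcnmb4 (chromosome 7, 52066145 to 52119098, minus strand) had 21.3, 31.5 and 49.0 CPM as lowest, median and highest in CCI, against 36.9, 66.1, 50.9, 50.9 and 37.1 CPM in sham, or -0.59 ± 0.16 on the log2 scale (adjusted p = 0.0379 in edgeR). Its pore partner Kcnma1 had -0.11 ± 0.19 and was not called. Kcnc2, the Kv3 channel known from fast-spiking interneurons (chromosome 7, 47700035 to 47883979, plus strand), had 28.3, 45.2 and 83.5 CPM in CCI, against 45.6, 78.2, 70.6, 60.3 and 67.4 CPM in sham. It was below all sham libraries in 11 of 20 CCI libraries, at -0.55 ± 0.15 on the log2 scale (adjusted p = 0.0359 in edgeR), and TD-CCI 4, at 83.5 CPM, lay above them. Without Vehicle-sham 2 Kcnmb4 and Kcnc2 had -0.42 and -0.44, with adjusted p-values of 0.245 and 0.195.

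**Figure D4:**
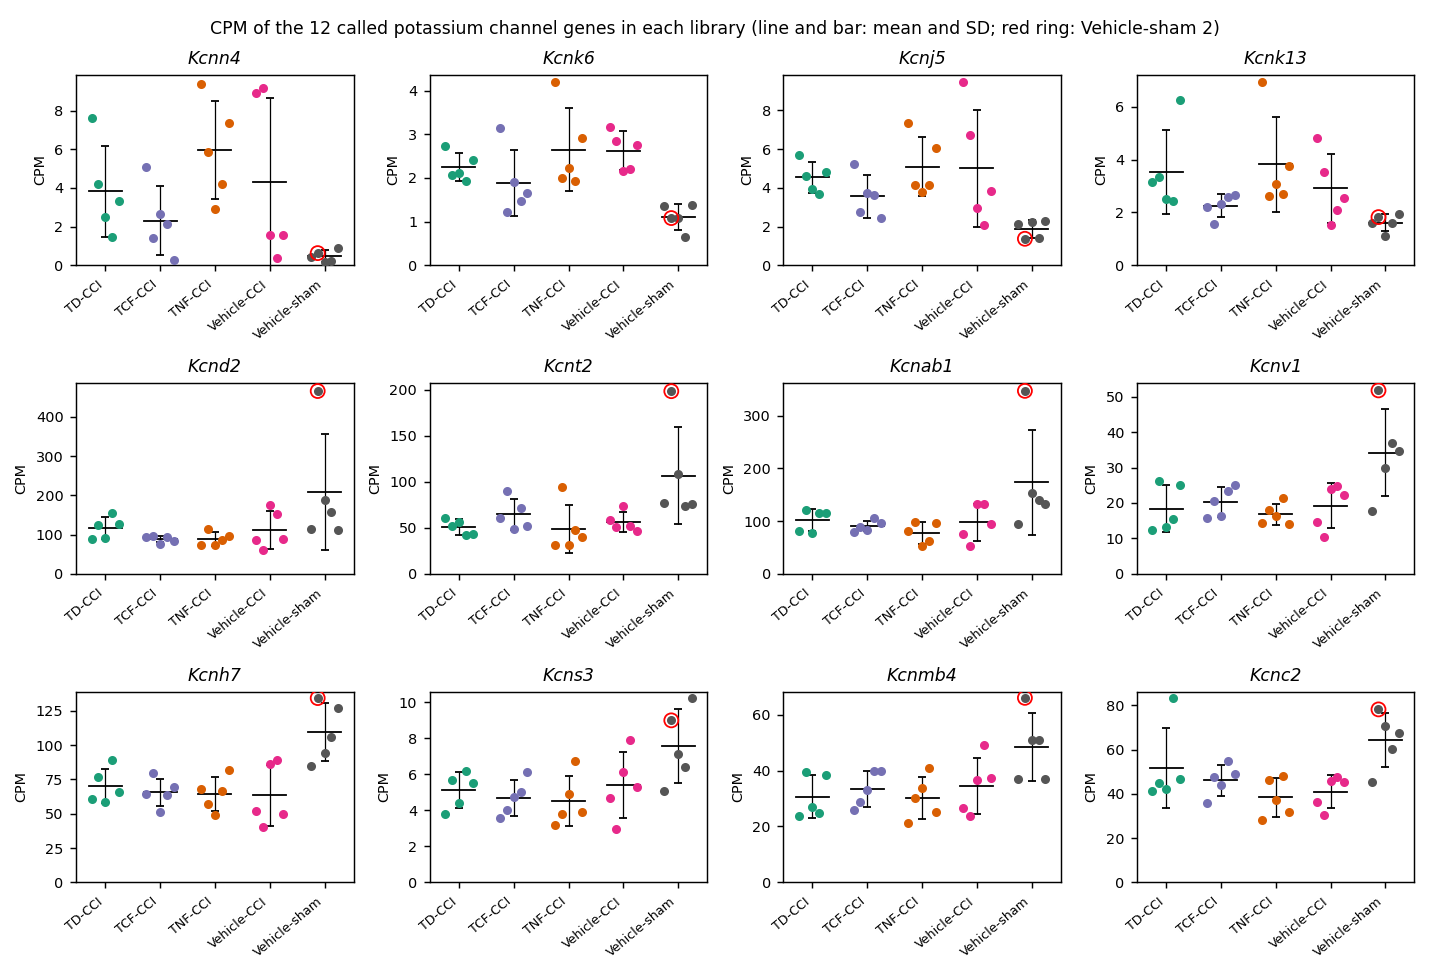
CPM in each library for the 12 genes called for the 4 CCI groups averaged against Vehicle-sham, with group mean (line) and SD (bar), CCI groups left of sham and a red ring around Vehicle-sham 2. The 4 genes that rose fill the top row, with Vehicle-sham 2 inside the sham cluster; for Kcnd2, Kcnt2 and Kcnab1 it sits far above the other 4 sham libraries.

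For reads in shared exons it is not known which gene, if any, they were counted for. Among the called genes, exons of other genes overlap 6.58% of the Kcnd2 exon length, 3.22% of Kcnk13 and 1.99% of Kcnh7.

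Values of neuronal markers are set beside the genes that fell. Of 8 neuronal markers all had a log2 fold change under 0, 1 fell (Stmn2, -0.70 ± 0.19), and their median was -0.35. The summed level was 1933 to 4180 CPM in CCI and 3043 to 5155 CPM in sham, where Vehicle-sham 2 was highest. Among the 5 markers of fast-spiking interneurons Pvalb fell (-0.67 ± 0.20), and of the 7 markers of hippocampal neurons Neurod6 (-1.18 ± 0.19) and Bok (-0.84 ± 0.17) fell. Without Vehicle-sham 2 none of these 4 was called in edgeR: Stmn2 had -0.34 (adjusted p = 0.381), Pvalb -0.40 (0.346), Neurod6 -0.83 (0.06) and Bok -0.76 (0.066). The medians without it were -0.32 over the 8 neuronal markers and -0.09 over the 5 of fast-spiking interneurons. Log2 levels were set against the log2 sum of the neuronal markers over the 20 CCI libraries. Kcns3 gave an r of 0.89 (permutation p = 1e-05) and Kcnv1 one of 0.82 (permutation p = 4e-05). For Kcnmb4 r was 0.81, and for Kcnc2 0.61 (permutation p = 0.00421). The rho values were 0.89, 0.76, 0.81 and 0.70, and the r without the 2 farthest libraries was 0.86, 0.71, 0.79 and 0.55. Adjusted over the 12 relations, the p-values for r were 4e-05, 9.6e-05, 6e-05 and 0.00632, and those for rho 4e-05, 0.00048, 0.00012 and 0.00177. Weaker relations were those of Kcnab1 (r = 0.54, adjusted permutation p = 0.0196; rho = 0.56, 0.0164), Kcnd2 (r = 0.51, 0.0265; rho = 0.35, 0.138) and Kcnh7 (r = 0.47, 0.0379; rho = 0.40, 0.0945). Without the 2 farthest libraries r was lower in these 3, at 0.37, 0.36 and 0.25. Kcnt2 gave an r of -0.21 (adjusted permutation p = 0.366) and a rho of -0.32 (0.171). In the 16 CCI libraries with a mitochondrial rRNA share over 5%, r was 0.90 for Kcns3, 0.83 for Kcnv1 and Kcnab1, 0.82 for Kcnmb4, 0.65 for Kcnc2, 0.58 for Kcnd2, 0.56 for Kcnh7 and -0.36 for Kcnt2.

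Members with a textbook role that were not called are given here by value. The axonal Kv1 channels Kcna1 and Kcna2 had log2 fold changes of -0.06 ± 0.15 and -0.06 ± 0.15, and Kcna3, known from microglia and lymphocytes, had 0.39 ± 0.26. The fast Kv3 channel Kcnc1 had 0.01 ± 0.18. Among two-pore channels, Kcnk1, which astrocytes also use, had -0.36 ± 0.14 and Kcnk2, a channel opened by stretch and lipids, had -0.27 ± 0.19. The M-current subunits Kcnq3 and Kcnq5 had -0.39 ± 0.22 and -0.05 ± 0.16. Kv7 was the one subfamily with all its members, 5 of 5, under 0, and 0 of 5 were called. Under 0 were also 52 of the 86 channel genes and 10282 of all 21064 genes. Kcnq1 and Kcnq5 did not keep this sign in every fit, reaching 0.14 and 0.029. Kcnn2, the small-conductance calcium-activated channel, had -0.02 ± 0.14 and Kcnj8, the channel subunit of pericytes that adenosine triphosphate closes, had -0.07 ± 0.17. Kcnj2, a strong inward rectifier, had 0.19 ± 0.13, and Kcne4, a small accessory subunit, had -0.18 ± 0.17. Among channels of astrocytes, Kcnj10 had -0.02 ± 0.21, with 70.9, 160 and 250 CPM as lowest, median and highest in CCI, against 163, 142, 118, 183 and 168 CPM in sham. Its partner subunit Kcnj16 had 15.5, 27.7 and 90.4 CPM in CCI, against 12.0, 25.6, 11.2, 12.5 and 19.8 CPM in sham, and stood just outside the threshold at 0.93 ± 0.29 (edgeR adjusted p = 0.0533). The astrocyte marker Gfap rose beside it (1.33 ± 0.34), and was the one of 6 astrocyte markers called, their summed level being 2561 to 10746 CPM in CCI and 2614 to 4132 CPM in sham. None of the markers of oligodendrocytes (5), endothelium (4), pericytes and smooth muscle (4), choroid plexus (3) or thalamus (4) was called in this comparison, and 1 of 4 markers of ependyma rose (Dnah12, 1.53). Neither Gfap nor Dnah12 was called without Vehicle-sham 2, with log2 fold changes of 1.25 and 1.36 (edgeR adjusted p = 0.109 and 0.0666).

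Other genes of potassium channel function, namely auxiliary proteins, anchors, the sulphonylurea receptors and the Hcn pacemaker channels, were listed as partners. Of 18 tested, 0 rose and 1 fell, and 8 were above 0, with a median of -0.04. The one that fell was Lgi1, a secreted protein that binds Adam22 at Kv1-rich synapses, with 62.4 ± 11.1 CPM in CCI (SD, n = 20) and 85.7 ± 15.7 CPM in sham (SD, n = 5), or -0.46 ± 0.13 on the log2 scale (adjusted p = 0.0406 in edgeR). Without Vehicle-sham 2 it had -0.51 and was not called (edgeR adjusted p = 0.0773). Hcn4 was the highest of the partners at 0.87 ± 0.40 and was not called (edgeR adjusted p = 0.184).

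Promoter sequence was taken from RefSeq (build GRCr8), as the 250 bases before each gene's start. It was found for 62 of the 92 genes and for 9 of the 12 called, and was lacking for Kcnn4, Kcnk6 and Kcnv1. A pair that rose (Kcnj5 and Kcnk13) and a pair that fell (Kcnd2 and Kcnh7) are shown as examples of genes called higher and lower, each 5′ to 3′ on the gene's strand, with capitals on the one match to a searched motif.
Kcnj5, chr8:39011097-39011346, minus strand: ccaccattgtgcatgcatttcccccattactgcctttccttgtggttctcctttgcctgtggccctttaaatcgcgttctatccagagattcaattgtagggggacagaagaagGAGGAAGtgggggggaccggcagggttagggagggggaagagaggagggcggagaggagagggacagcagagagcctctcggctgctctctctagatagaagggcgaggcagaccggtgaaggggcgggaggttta
Kcnk13, chr6:124971559-124971808, plus strand: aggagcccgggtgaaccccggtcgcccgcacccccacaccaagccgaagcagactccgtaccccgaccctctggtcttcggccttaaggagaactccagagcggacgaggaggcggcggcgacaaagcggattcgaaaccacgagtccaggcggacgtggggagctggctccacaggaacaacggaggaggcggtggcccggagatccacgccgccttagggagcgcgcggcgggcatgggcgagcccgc
Kcnd2, chr4:50742235-50742484, plus strand: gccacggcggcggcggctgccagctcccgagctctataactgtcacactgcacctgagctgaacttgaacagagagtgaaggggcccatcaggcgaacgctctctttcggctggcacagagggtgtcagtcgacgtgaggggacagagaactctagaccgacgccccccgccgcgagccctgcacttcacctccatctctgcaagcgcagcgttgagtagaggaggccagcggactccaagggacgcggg
Kcnh7, chr3:68230672-68230921, minus strand: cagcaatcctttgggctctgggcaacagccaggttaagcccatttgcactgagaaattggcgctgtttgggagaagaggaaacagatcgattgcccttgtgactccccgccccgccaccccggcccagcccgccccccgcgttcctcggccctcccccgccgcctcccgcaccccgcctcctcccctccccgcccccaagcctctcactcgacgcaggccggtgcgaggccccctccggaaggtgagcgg
Searched on both strands were GAGGAAG, the core bound by PU.1 and other ETS factors, TGANTCA for AP-1 and TGACGTCA for the cAMP response element. GAGGAAG stood in 12 of the 62 channel gene promoters (19.4%) and in 10.1% of all 27457 promoters of this length, AP-1 in 3.23% and 6.41%, and the cAMP response element in 0% and 1.68%. Of the 9 called genes with a sequence, Kcnj5 alone held a match, and Kcnn4 and Kcnk6, which also rose, could not be searched. The median GC content was 60.8% in the 62 promoters and 52% in all. A match describes letters and not a bound site, and these windows say nothing about which factors act there.

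Each CCI group was then set against the same 5 Vehicle-sham libraries, so the comparisons share their controls. TNF-CCI had the only calls: 10 of 86 channel genes (11.6%) against 2.57% of all genes in edgeR, with 4 higher (1.71% of all genes) and 6 lower (0.864%). Kcnn4 rose by 3.67 ± 0.76 on the log2 scale (adjusted p = 0.0198), Kcnj5 by 1.43 ± 0.32, Kcnk6 by 1.25 ± 0.27 and Kcnk13 by 1.25 ± 0.32. Kcnd2 (-1.23 ± 0.32), Kcnab1 (-1.16 ± 0.28), Kcnt2 (-1.14 ± 0.29), Kcnv1 (-1.02 ± 0.26), Kcnh7 (-0.76 ± 0.20) and Kcnc2 (-0.74 ± 0.20) fell. All 5 TNF-CCI libraries lay above all sham libraries for the 4 that rose and below them for Kcnh7, making 5 of 86 without overlap (5.81%), beside 3.51% of all genes (2.58% above and 0.926% below). The calls rested on single libraries: 0 channel genes passed without TNF-CCI 1, without TNF-CCI 5 or without Vehicle-sham 4, 3 passed without Vehicle-sham 2 or without Vehicle-sham 3 (Kcnj5, Kcnk6 and Kcnn4), and 4 without TNF-CCI 3. With a covariate for the mitochondrial rRNA share 0 passed, and 4 of the 5 TNF-CCI libraries had a share under 5%, as had 1 of 5 sham libraries. The percentage of all genes called is not given for these fits. The counts therefore do not show whether channel genes differed from other genes in this.

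In TD-CCI 0 of 86 channel genes were called, beside 0% of all genes in edgeR, with 14 (16.3%) at an unadjusted p under 0.05, beside 16.5% of all genes. DESeq2 called 6 channel genes and 1.25% of all genes, and limma voom called 0 channel genes and 2 of all genes. Kcnn4 (7.63, 4.21, 2.50, 1.45 and 3.32 CPM in TD-CCI), Kcnj5, Kcnk6 and Kcnk13 lay above all sham libraries in 5 of 5 TD-CCI libraries and Kcnt2 lay below them. That made 5 of 86 without overlap (5.81%), beside 3.23% of all genes (2.36% above and 0.864% below). The smallest p-values were those of Kcnn4 (3.03 ± 0.75), Kcnj5 (1.26 ± 0.32) and Kcnj16 (1.34 ± 0.35), each with an adjusted p of 0.151 in edgeR. In TCF-CCI 0 of 86 were called (0.0142% of all genes), with 25 (29.1%) at an unadjusted p under 0.05, beside 18.0% of all genes. DESeq2 called 2 channel genes (Kcnd2 and Kcnh7) and 1.07% of all genes, and limma voom called 6 channel genes and 1.84% of all genes. Without overlap were 6 of 86 (6.98%, beside 3.55% of all genes, 1.73% above and 1.82% below): Kcnj5 and Kcnt1 above sham, and Kcnd2, Kcnh7, Kcnh5 and Kcnk1 below. Kcnd2 had 94.6, 95.6, 76.8, 93.0 and 82.5 CPM in TCF-CCI, against 112 CPM in the lowest sham library, at -1.23 ± 0.32 on the log2 scale (adjusted p = 0.144 in edgeR).

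Vehicle-CCI, the impact with vehicle, likewise had 0 of 86 channel genes called in edgeR (0% of all genes), with 20 (23.3%) at an unadjusted p under 0.05, beside 12.7% of all genes. DESeq2 called 4 channel genes (Kcnn4, Kcnj5, Kcnk6 and Kcnh7) and 1.17% of all genes, and limma voom called 0 of all genes. Without overlap were 3 of 86 (3.49%, beside 0.783% of all genes), Kcnk6 above sham and Kcnt2 and Kcnh8 below. Kcnk6 had 3.18, 2.85, 2.15, 2.20 and 2.76 CPM in Vehicle-CCI, or 1.24 ± 0.27 on the log2 scale (adjusted p = 0.132 in edgeR). Within this group Kcnn4 split widely, with 8.92 and 9.15 CPM in Vehicle-CCI 1 and 2 and 1.55, 0.367 and 1.57 CPM in the other 3. The marker Cd68 had 17.1 and 11.2 CPM in the same first pair and 2.21, 1.70 and 3.64 CPM in the others. Without Vehicle-CCI 4, 5 channel genes and 1.72% of all genes were called in edgeR: Kcnn4, Kcnj5 and Kcnk6 higher, Kcnh7 and Kcnj3 lower.

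The authors' deposited table of DESeq2 results for a CCI group listed 89 channel genes. At an adjusted p under 0.05 the authors' deposited table called 6 channel genes in TD-CCI (2.34% of all genes with an adjusted p), 7 in TCF-CCI (2.24%), 10 in TNF-CCI (3.53%) and 2 in Vehicle-CCI (0.326%). Kcnn4 was called higher in each authors' deposited table, with log2 fold changes of 3.03 in TD-CCI, 2.32 in TCF-CCI, 3.68 in TNF-CCI and 3.22 in Vehicle-CCI. The 7 called in the authors' deposited table for TCF-CCI were Kcnn4, Kcnd2 (-1.24), Kcnj16 (0.99), Kcnj5 (0.91), Kcnh5 (-0.86), Kcns2 (-0.83) and Kcnh7 (-0.74). None of these was called for TCF-CCI in edgeR, where 0 of 86 channel genes passed.

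The supplements were set against Vehicle-CCI to ask whether they change the channel genes of the injured hippocampus. No comparison called any channel gene in edgeR: 0 of 86 in TD-CCI, TCF-CCI and TNF-CCI over Vehicle-CCI (0% of all genes in each), and 0 of 86 in the test for any difference among the 4 CCI groups. At an unadjusted p under 0.05 there were 2, 1, 6 and 3 channel genes (2.33%, 1.16%, 6.98% and 3.49%), beside 1.75%, 1.44%, 3.46% and 2.38% of all genes, and DESeq2 and limma voom called 0 channel genes in each. No channel gene separated a supplement group from Vehicle-CCI without overlap (0 of 86 each, beside 0.423%, 0.513% and 0.513% of all genes for TD-CCI, TCF-CCI and TNF-CCI). The smallest p-values were those of Kcne2 (TD-CCI), Kcng3 (TCF-CCI) and Kcnq1 (TNF-CCI). Kcng3, a silent subunit, had 0.596, 1.00, 0.599, 0.454 and 0.864 CPM in TCF-CCI, against 0.206, 0.173, 0.316, 0.500 and 0.291 CPM in Vehicle-CCI, where only Vehicle-CCI 4 reached into the TCF-CCI range. Its log2 difference of 1.24 ± 0.41 had an adjusted p of 1 in edgeR. For Kcnn4, the log2 fold change over Vehicle-CCI was -0.18 ± 0.65 in TD-CCI, -0.90 ± 0.66 in TCF-CCI and 0.46 ± 0.64 in TNF-CCI. With errors of this size a missed threshold does not show that the groups had the same level.

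Kcne2 and Kcnj16 were far higher in 1 or 2 libraries than in the rest. Kcne2, a small accessory subunit known from the choroid plexus, was at 71.4 CPM in Vehicle-CCI 3 and 20.9 CPM in TCF-CCI 4, and at 3.52 to 9.16 CPM in the other 23 libraries. The choroid plexus marker Ttr was at 3757 and 476 CPM in those libraries and at 3.35 to 351 CPM elsewhere. Kcne2 gave log2 differences of -1.87 ± 0.61 in TD-CCI and -1.72 ± 0.61 in TNF-CCI over Vehicle-CCI, both with an adjusted p of 1 in edgeR, and its log2 fold change over sham for the averaged CCI groups was 0.38 with all libraries and -0.09 without Vehicle-CCI 3. Kcnj16 was at 90.4 CPM in TD-CCI 4 and at most 42.0 CPM elsewhere, and without that library it passed for the averaged CCI groups over sham, at 0.81 on the log2 scale (adjusted p = 0.0427 in edgeR). In TD-CCI 4 the thalamus markers Slc17a6 and Tcf7l2 were at 115 and 92.4 CPM, against at most 28.3 and 21.2 CPM in the other 24 libraries. Kcna1, Kcna2, Kcnc1 and Kcnc2 were also at their highest of the 25 libraries in TD-CCI 4, with 154, 186, 82.6 and 83.5 CPM.

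Kcnq1, a Kv7 channel known from heart and epithelia, split by the mitochondrial rRNA share. It was at 4.79 to 7.13 CPM in the 5 libraries with a share under 5% (TNF-CCI 1, 3, 4 and 5 and Vehicle-sham 5) and at 11.2 to 21.1 CPM in the other 20 libraries. LOC120099961, an unnamed gene on the opposite strand whose exons overlap 121 bases of the Kcnq1 exons, split likewise, with 20.2 to 29.2 and 39.9 to 67.4 CPM. Whether counting used strand is not stated in the labels, so reads in the shared bases cannot be told apart. Those bases are 1.09% of the Kcnq1 exon length. Kcnq1 had the smallest p of the channel genes in TNF-CCI over Vehicle-CCI (-0.87 ± 0.28, adjusted p = 1 in edgeR), where 4 of 5 TNF-CCI libraries had the low share and 0 of 5 Vehicle-CCI libraries.

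**Figure D5:**
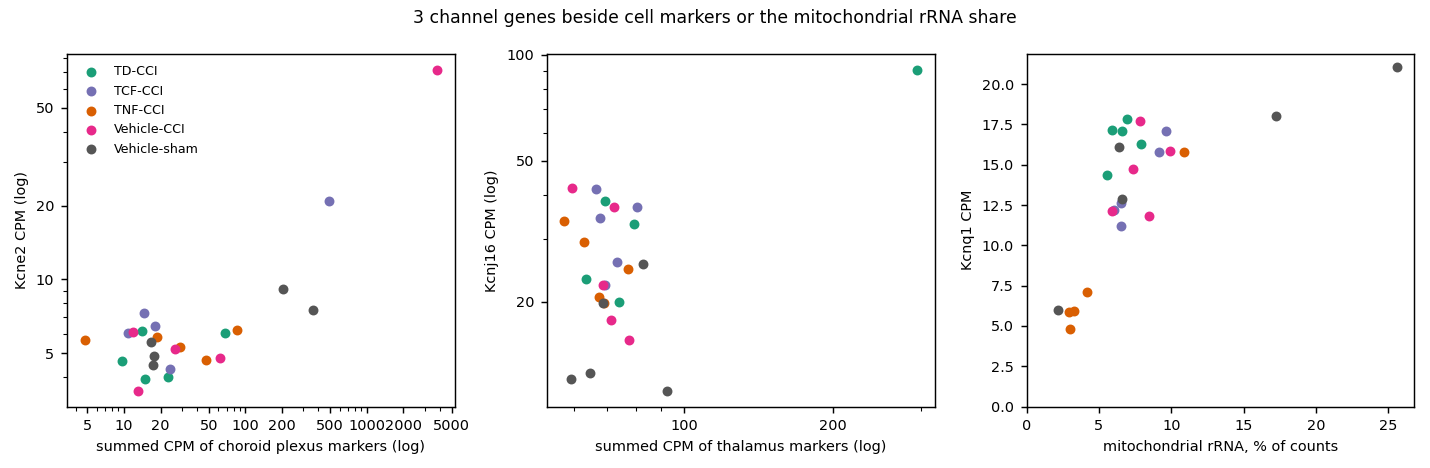
Kcne2 against summed choroid plexus markers, Kcnj16 against summed thalamus markers (log axes, CPM) and Kcnq1 against the mitochondrial rRNA share (linear axes), 1 point per library. Vehicle-CCI 3 and TCF-CCI 4 stand apart in the first panel, TD-CCI 4 in the second, and 5 libraries with a share under 5% lie at 4.79 to 7.13 CPM of Kcnq1 in the third.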

How the data were processed

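The hippocampus of each rat group was measured by RNA-seq of polyadenylated RNA. Per the labels' protocols, RNA was taken with an RNeasy fibrous tissue kit and libraries were made with a TECAN Universal Plus mRNA-Seq kit. The deposited table gives whole-number read counts per gene, and STAR, featureCounts, Salmon and DESeq2 are named, without versions, in the submitters' processing notes, as is the build mRatBN7.2. Whether counting used strand is not stated there. The authors' tables of each CCI group against control hold log2 fold changes and p-values from DESeq2, per the file headers.

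From the counts, 7 genes with empty cells were left out, none a potassium channel gene. All 25 libraries entered 1 fit in edgeR 4.0.16 (R 4.3.3) with TMM scaling, its default filter on low counts by group and the robust quasi-likelihood test, and p-values were adjusted by Benjamini-Hochberg over 21064 genes with a threshold of 0.05. SE is the fold change over the root of the F statistic. Alternatives were DESeq2 1.42.0, limma 3.58.1 (voom with quality weights), DESeq2 size factors, other filters, only the groups compared, a replicate block, a covariate for the mitochondrial rRNA share and leaving out libraries. Levels are CPM after TMM scaling, divided by exon length where genes are compared. On simulated counts for the 4 CCI groups averaged and set against sham, run on 21064 genes, 84 of 100 genes changed by 1 on the log2 scale and 99 of 100 changed by 2 were called in the right direction, with 6 of 20694 unchanged genes called. The simulation drew each gene on its own, with the same spread in all libraries. It held no library that stood apart as Vehicle-sham 2 did, so these rates do not carry over to the real libraries. Library totals of 27290179 to 44899467 counts leave low genes such as Kcnn4 at 5 to 30 counts in each sham library. Replicate libraries differed by more than sampling noise, with a chi-square per degree of freedom of 24.9 or more in each pair.

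The genes were chosen by name and the marker and partner lists by hand, with earlier results of these data known. Full values go to genes called for the averaged CCI groups, the highest per subfamily, the 3 of smallest p in each comparison, those without overlap and a set with textbook roles. The values of 3 genes are not reported here, though they enter the fits, counts and sums.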

Additional observations from a re-analysis of the deposited data

Results flagged for a closer look

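For 41 of the channel genes given with full values, some of which were chosen because they were called or had small p-values in these libraries, each of the 5 groups was examined for a single library far from the other 4, by a gap to the nearest library of over 0.71 of the group's range. Of 205 groups examined, 22 met this, and chance gives about 1 in 20 for genes not chosen on their values. The values are in CPM.

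TD-CCI 4 stood apart in 5 genes. In it Kcna2 was at 186 (next 121), Kcna1 at 154 (next 111), Kcnj16 at 90.4 (next 38.5), Kcnc2 at 83.5 (next 46.6) and Kcnc1 at 82.6 (next 47.1), and the thalamus markers Slc17a6 and Tcf7l2 were at their highest of all libraries. Vehicle-sham 2, with the highest mitochondrial rRNA share, was highest in its group for Kcnd2 at 466 (next 188), Kcnab1 at 347 (next 153) and Kcnt2 at 199 (next 108), and lowest for Kcnt1 at 7.97 (next 49.9).

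TNF-CCI 1 was highest in its group for Kcng1 at 156 (next 76.9), Kcnj12 at 18.1 (next 7.66) and Kcnk13 at 6.93 (next 3.77). TNF-CCI 2, the library of its group with the highest mitochondrial rRNA share, was highest for Kcnt2 at 94.2 (next 47.3) and Kcnq1 at 15.8 (next 7.13) and lowest for Kcnj10 at 91.5 (next 178). TCF-CCI 5 was highest for Kcnt1 at 133 (next 90.9) and Kcna2 at 121 (next 109).

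Kcne2 was at 71.4 in Vehicle-CCI 3 (next 6.07) and at 20.9 in TCF-CCI 4 (next 7.25), the libraries with the most Ttr. The remaining values were Kcnk13 at 6.27 in TD-CCI 5 (next 3.32), Kcne4 at 2.55 in TCF-CCI 1 (next 1.57) and Kcnj2 as low as 8.45 in TNF-CCI 4 (next 10.6).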

How the results depend on the processing

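With the 4 CCI groups averaged and set against sham, 12 channel genes were called in edgeR. The count was 0 without Vehicle-sham 2 and 3 together, ran from 0 to 15 when each of the 25 libraries was left out in turn, and was 12 with DESeq2 size factors and with each other filter, 16 in DESeq2, 17 in limma voom and 9 with a covariate for the mitochondrial rRNA share, beside 11.5%, 6.17% and 3.19% of all genes in those 3 fits. For TNF-CCI over sham (10 called) the count was 2 with only the groups compared, 0 with the covariate, 0 without Vehicle-sham 2 and 3, and 0 to 13 leaving out each library. Comparisons with 0 called gave 4 in DESeq2 and 0 to 5 leaving out each library for Vehicle-CCI, 6 in DESeq2 and 2 with only the groups compared for TD-CCI, and 2 in DESeq2 and 6 in limma voom for TCF-CCI. The cause was not tested. Apart from the 3 fits with a percentage of all genes beside them, these counts do not set channel genes apart from other genes.

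With the replicate number as a block, the counts over sham were 14 for the averaged CCI groups, 13 for TNF-CCI, 1 for TD-CCI, 1 for Vehicle-CCI and 0 for TCF-CCI. The percentage of all genes called with the block is not given, so these counts do not set channel genes apart either. The numbers were not taken to pair libraries: over 50 same-numbered pairs the correlation of deviations ran from -0.32 to 0.44 with a median of 0.12, 27 were over 0.1, and 11 of 25 libraries correlated best with a library of their own number.

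Some genes that were not called changed direction in the averaged CCI groups over sham. Kcnq1 had log2 fold changes of 0.064 with the covariate and 0.14 without Vehicle-sham 2 and 3. In limma voom, with the covariate and without both sham libraries, Kcnj12 had -0.070, -0.016 and -0.063, and Kcnc1 -0.19, -0.071 and -0.28. Kcnj8 had 0.044 in limma voom and 0.14 without both, and Kcnn2 0.0042 with no filter. Leaving out each library gave -0.17 to 0.052 for Kcna1, -0.14 to 0.091 for Kcna2, -0.12 to 0.12 for Kcnc1, -0.090 to 0.58 for Kcne2, -0.11 to 0.027 for Kcnj10, -0.19 to 0.054 for Kcnj8, -0.30 to 0.077 for Kcnk4, -0.24 to 0.11 for Kcnma1, -0.14 to 0.085 for Kcnn2 and -0.13 to 0.029 for Kcnq5. Only the groups compared gives no value for the averaged CCI groups. Depth limits Kcnn4 in sham, with 5 to 30 counts in each sham library.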

Other observations

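Several channel genes are neighbours in the genome. Kcnj5 and Kcnj1 lie 26.8 kb apart, and Kcnj1, the inward rectifier of the kidney, held 18 counts over all 25 libraries where Kcnj5 held 3493. Kcnj9 and Kcnj10 lie 14.1 kb apart and Kcnj16 and Kcnj2 39.5 kb apart. With the 4 CCI groups averaged and set against sham, Kcnj2 had a log2 fold change of 0.19, beside 0.93 for Kcnj16. Exons of Igsf8 on the opposite strand overlap 30.7% of the Kcnj9 exon length, so counts of Kcnj9 are uncertain.

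Vehicle-CCI 2 was the lowest of the 25 libraries for 25.6% of the 86 channel genes and for 8.09% of all genes. TD-CCI 4 was the highest for 16.3% of the channel genes and for 5.47% of all genes.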
